A study of Mus musculus with 10 samples.

Results

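The pan-neuronal genes described here are 34 genes that most young neurons express. They encode RNA-binding proteins, parts of the cytoskeleton, axonal and growth cone proteins, and the machinery of vesicle release and adhesion. The members were a named list, and each was read from the probe set (a group of array probes for 1 transcript) that carries its gene symbol in the platform annotation. All 34 of 34 were found among the 19938 genes with a symbol of their own. A pair of them, Ina and Stmn3, had 2 probe sets, and the one with the higher mean over all arrays was used.

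RNA of periotic tissue from single embryos at embryonic day 12.5 was read on the Affymetrix Mouse Gene ST 1.0 platform, with an array for each embryo. Periotic tissue is the otic vesicle, the sac of epithelium that becomes the inner ear, together with the mesenchyme around it, and both sides of an embryo were pooled. The 5 mutants were T-Cre conditional Tbx1 knockouts, and the 5 controls were T-Cre conditional Tbx1 heterozygotes, so both groups carried the T-Cre transgene. T-Cre is a recombinase that acts in early mesoderm, and Tbx1 encodes a T-box transcription factor. The ear's epithelium and the neurons that arise from it are not mesodermal, and the labels do not give the full alleles of either group. The labels call the embryos of a group biological replicates.

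As background, neurons of the inner ear's cochleovestibular ganglion delaminate from the otic epithelium and send axons to the hindbrain, which lies beside the otic vesicle. On leaving the cell cycle, such neurons switch on Hu proteins, neuron-specific tubulin, stathmins, neurofilaments and vesicle proteins as a set. The same genes serve central and peripheral neurons alike, so a member by itself does not tell one kind of neuron from another.

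Values are log2 signals after RMA, the authors' array normalization, so a difference of 1 is a doubling. Signals of different genes come from different probes and are not compared with each other. Tbx1 had log2 signals of 8.40, 7.96, 7.58, 7.63 and 7.58 in mutants 1 to 5 and of 8.89, 9.01, 8.84, 8.23 and 8.59 in controls 1 to 5. Its difference was -0.88 ± 0.17 (SE, limma adjusted p = 0.451, exact two-sided permutation p = 0.0159), and 1 mutant overlapped the controls. The labels do not say whether its probes lie in the deleted part of the gene, so this is a partial check of the labels. Pairs of arrays had correlations of 0.985 to 0.993. By Xist and Y-linked genes 1 mutant and 2 controls were male, and the sex-linked genes Eif2s3y and Xist differed by -0.84 ± 0.83 and 1.46 ± 1.54 (SE) between the groups. Y-linked genes in the female embryos read 3.12 to 4.36, which serves as a background range, and all 34 members read above 4.36 in all 10 arrays, as did 83.2% of all genes. Embryos numbered 1 to 3 differed from numbers 4 and 5 in immediate early genes in both groups: Fos read 8.82 to 9.08 in the former and 5.49 to 5.91 in the latter. All 14 otic epithelium genes and all 14 periotic mesenchyme and cartilage genes listed as markers were above 4.36 in every array, but so were all 18 central neuron subtype, 12 macrophage and 11 myoblast genes, so this level does not tell the labelled tissue from others.

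All 34 members had a higher mean in the mutants than in the controls, and 0 of 34 passed the test over all genes. The share of all genes with a higher mean in the mutants was 49.1%. The median log2 difference of the members was 0.39, against -0.0021 over all genes, and single members ranged from 0.18 for Rab3a to 0.85 for Gpm6a. Probe sets past the limma adjusted p of 0.05 in the higher direction were 0.00918% of those tested, and the members' adjusted p lay between 0.569 and 0.829. At an unadjusted limma p under 0.05 there were 6 members, all higher (Ncam1, Scg3, Elavl4, Kif5a, Elavl3 and Kif5c), where 4.7% of all genes reached this in the higher and 3.11% in the lower direction. With the replicate number as a block, 15 members did, against 6.02% of all genes, and again 0 passed after adjustment. In tissue RNA, more neurons and more RNA of these genes per neuron cannot be told apart.

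The size of the members' shift depended strongly on 1 embryo of each group. The module mean, which is the mean over the 34 members of the log2 signal minus each gene's control mean, was 0.23, 0.15, 0.30, 0.02 and 1.32 in mutants 1 to 5. In controls 1 to 5 it was -0.14, -0.50, 0.19, 0.28 and 0.18. Mutant 5 stood far above every other embryo, control 2 lay lowest, and mutants 1 to 4 lay within or just above the range of the other controls. The difference of the module mean was 0.41, with an SD of 0.52 among the mutants and 0.32 among the controls.

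Mutant 5 was the highest of the 10 arrays for 32 of the 34 members, against 14.1% of all genes, and control 2 was the lowest for 28, against 12.1%. Without mutant 5 the difference of the module mean was 0.18, 33 of 34 members were still higher (51.6% of all genes), and the median difference was 0.18. At an unadjusted limma p under 0.05 there were then 2 members, against 4.96% of all genes. Without control 2 the module mean differed by 0.28, with 34 of 34 higher and 2 at that p, against 3.16% of all genes. Without both, 20 of 34 members were higher and 14 lower (52.5% of all genes were higher), and the module mean differed by 0.05. Leaving out both was chosen after the values were seen and narrows the difference by construction. No member passed over all genes in any of these fits. Taken by label number, the mutant exceeded the control in 4 of 5 pairs, with module mean differences of 0.37, 0.66, 0.11, -0.26 and 1.15 for numbers 1 to 5. What same-numbered embryos have in common is not stated in the labels. Within numbers 1 to 3 the difference was 0.38, with 34 of 34 members higher (52.2% of all genes) and 14 at an unadjusted limma p under 0.05 (4.24% of all genes). Within numbers 4 and 5 it was 0.44, with 33 of 34 higher (47% of all genes) and 0 at that p.

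**Figure D1:**
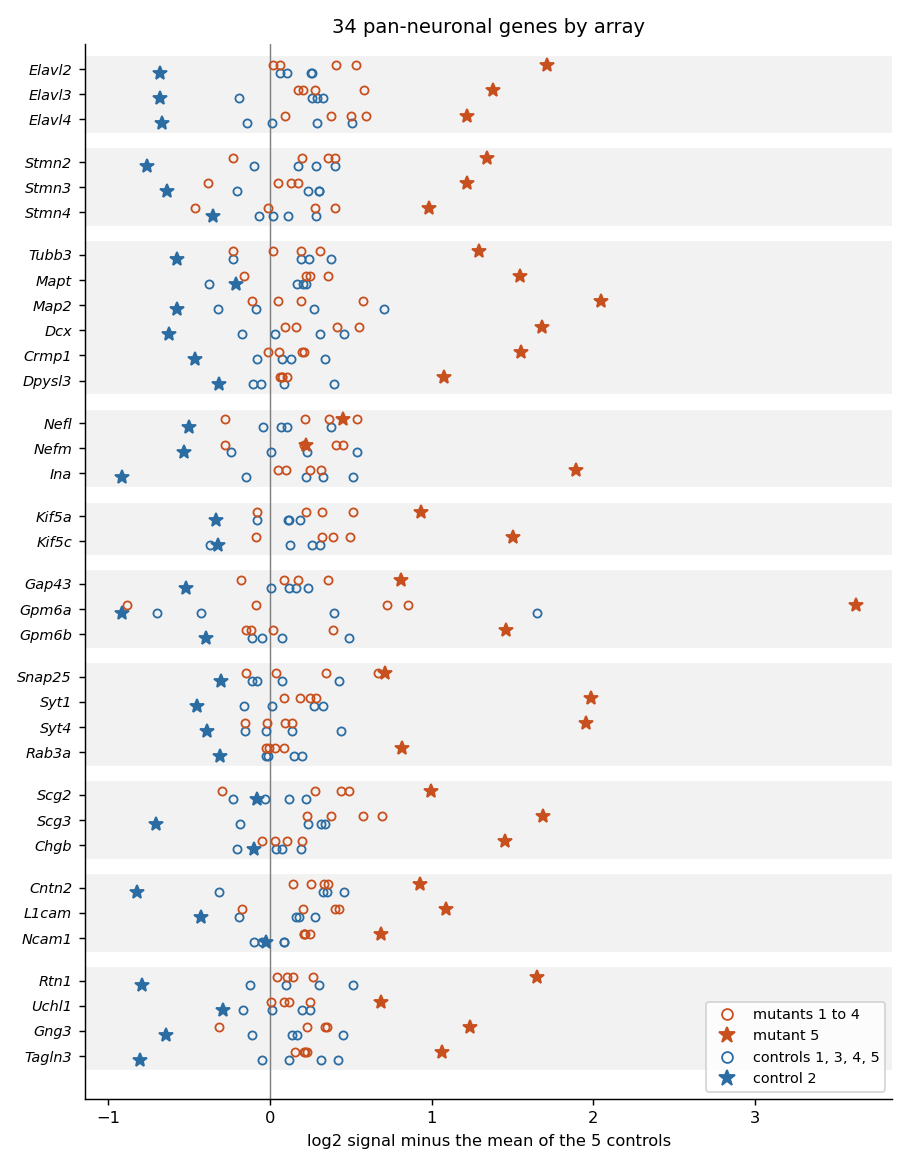
Log2 signal of each of the 34 members in each array, minus the mean of the 5 controls for that gene, with shaded bands for the groups of related proteins. Mutants are orange and controls blue, and the stars mark mutant 5, the highest array for 32 members, and control 2, the lowest for 28.

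**Figure D2:**
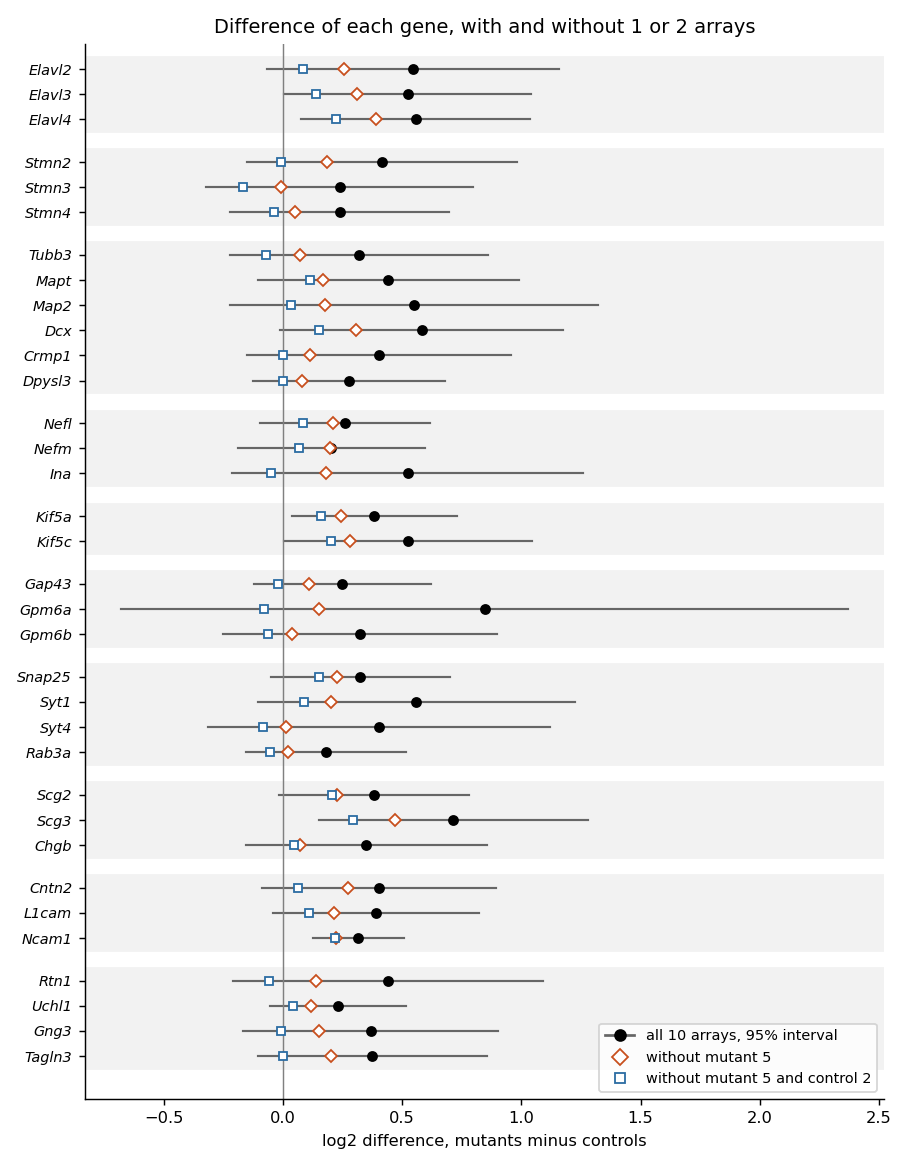
Log2 difference between mutants and controls for each member (filled circles, with 95% intervals), with the same difference without mutant 5 (diamonds) and without mutant 5 and control 2 (squares). The intervals of 28 of the 34 members include 0, and without both arrays 14 of the differences lie below 0.

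The promoters that could be matched were read for shared letters. RefSeq promoter windows (GRCm38.p6, 250 bases before to 50 after a gene's start) were matched for 23 of the 34 members. The motifs were chosen after the members' values had been seen and were searched on both strands. The palindrome TGACGTCA, the full site of the CREB family of activity-dependent transcription factors, occurred in windows of 4 of the 23 members and of 2.03% of the 27025 genes in the table. The 4 were Scg2, Chgb, Kif5c and Gpm6b. The E-box CAGCTG, a site form used by proneural factors, occurred in 7 of the 23 and in 18.3% of all genes, and the E-box CAGATG in 4 of the 23 and in 19.2%. TATAAA occurred in 4 of the 23 and in 15.7%. The core of the RE1 element, through which the repressor REST silences neuronal genes elsewhere in the body, occurred in 0 of the 23 and in 0.0407% of all genes. A window of 300 bases leaves out introns and distal elements, and a match is no measure of binding. Of the 23 members 9 had several windows, while the 27025 genes had 32851 windows in all. Whether a motif goes with the way the members vary was not tested.

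The 100 bases before the start are shown for the 4 members with TGACGTCA, because these are the matched members that share a full site, and for Elavl3, whose E-box at -43 lies close to a TATAAA at -33. Capitals mark TGACGTCA in the first 4 and CAGCTG in the last. The stretches are chr1:79440027-79440126 on the minus strand for Scg2, chr2:132781542-132781641 on the plus strand for Chgb and chr2:49619186-49619285 on the plus strand for Kif5c. They are chrX:166238843-166238942 on the plus strand for Gpm6b and chr9:22052024-22052123 on the minus strand for Elavl3.
Scg2: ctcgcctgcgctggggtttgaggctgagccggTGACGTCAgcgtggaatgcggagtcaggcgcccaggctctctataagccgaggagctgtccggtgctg
Chgb: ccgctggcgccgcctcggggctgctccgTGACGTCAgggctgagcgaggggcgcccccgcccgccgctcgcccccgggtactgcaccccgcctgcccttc
Kif5c: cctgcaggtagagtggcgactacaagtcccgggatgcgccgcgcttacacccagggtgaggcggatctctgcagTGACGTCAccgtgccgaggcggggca
Gpm6b: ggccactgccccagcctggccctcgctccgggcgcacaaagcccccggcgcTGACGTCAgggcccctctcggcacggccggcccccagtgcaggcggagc
Elavl3: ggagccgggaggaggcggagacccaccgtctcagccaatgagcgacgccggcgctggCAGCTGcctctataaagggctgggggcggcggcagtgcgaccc
Counted from the start, the first base of the site lies at -68 in Scg2, -72 in Chgb, -26 in Kif5c and -49 in Gpm6b, and that of the E-box of Elavl3 at -43. The log2 differences of these 4 members with the full site were 0.38, 0.35, 0.52 and 0.32, around the median of the members.

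The Hu proteins Elavl2, Elavl3 and Elavl4 bind and stabilise neuronal transcripts and are among the first markers of a postmitotic neuron. Elavl4 (probe set 10515095) read 8.47, 8.25, 8.38, 7.97 and 9.09 in mutants 1 to 5 and 7.74, 7.21, 8.39, 7.89 and 8.17 in controls 1 to 5. Of the mutants, 2 lay above all controls and the others overlapped them, and control 2 was more than a unit below the highest control. Its difference was 0.56 ± 0.22 (SE, limma adjusted p = 0.583). Elavl2 (10514352) read 8.45, 8.06, 8.58, 8.11 and 9.76 in the mutants and 8.15, 7.36, 8.30, 8.30 and 8.11 in the controls. Mutant 5 and control 2 were the extremes for Elavl2, and the other 8 arrays lay between 8.06 and 8.58. The difference of Elavl2 was 0.55 ± 0.28 and that of Elavl3 was 0.52 ± 0.24 (SE). Without mutant 5 the Hu genes still differed by 0.25, 0.31 and 0.39, and without control 2 as well by 0.08, 0.14 and 0.22, in the order of their numbers.

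The stathmins Stmn2, Stmn3 and Stmn4 release tubulin from microtubule ends in growing axons. Stmn2 (10490818) read 10.85, 10.65, 10.80, 10.22 and 11.79 in the mutants and 10.35, 9.69, 10.85, 10.73 and 10.62 in the controls. Only mutant 5 lay above all controls, and mutant 1 matched the highest control. Stmn3 (10490665) read 8.23, 8.31, 8.35, 7.79 and 9.39 in the mutants and 7.97, 7.54, 8.48, 8.48 and 8.41 in the controls, so mutants 1 to 4 all lay below 3 of the controls. The differences were 0.41 ± 0.26 for Stmn2, 0.24 ± 0.26 for Stmn3 and 0.24 ± 0.21 for Stmn4 (SE, limma adjusted p = 0.699, 0.829 and 0.782). Without mutant 5, Stmn3 was the 1 member of the 34 with a lower mean in the mutants, at -0.00769. The second probe set of Stmn3 read 3.87 to 4.19, under the background range's upper end, and carries no information on level.

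Tubb3 (neuron-specific beta-tubulin), Mapt (tau), Map2 and Dcx (doublecortin) build and bind microtubules, and Crmp1 and Dpysl3 carry collapsin signals to the growth cone's cytoskeleton. Dcx (10607156) read 9.46, 9.39, 9.85, 9.71 and 10.99 in the mutants and 9.13, 8.68, 9.33, 9.76 and 9.61 in the controls. For Dcx mutants 3 and 5 lay above the highest control, and its difference was 0.58 ± 0.28 (SE, limma adjusted p = 0.620). Tubb3 (10576332) read 10.96, 10.85, 10.67, 10.42 and 11.95 in the mutants and 10.42, 10.08, 10.89, 11.03 and 10.84 in the controls, with mutant 5 alone above the controls and a difference of 0.32 ± 0.25 (SE). The others differed by 0.44 ± 0.25 for Mapt, 0.55 ± 0.36 for Map2, 0.40 ± 0.26 for Crmp1 and 0.28 ± 0.19 for Dpysl3 (SE). For Mapt 4 of the 5 mutants lay above all controls, and mutant 4 was the exception. Map2 was the 1 member whose arrays numbered 4 and 5 all lay above those numbered 1 to 3, at 8.96 to 10.73 against 8.11 to 8.88, a pattern shown by 1.06% of all genes.

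The neurofilament subunits differed in their pattern over the embryos. Nefl and Nefm form the neurofilaments of long axons, and Ina (alpha-internexin) is their partner in central neurons. Nefm (10421100) read 10.84, 10.60, 10.79, 10.11 and 10.61 in the mutants and 10.40, 9.86, 10.92, 10.14 and 10.62 in the controls. Mutant 5 was mid-range for Nefm and control 3 was the highest array, so the groups overlapped fully. Nefl (10416175) read 10.99, 10.66, 10.81, 10.17 and 10.90 in the mutants and 10.52, 9.95, 10.83, 10.41 and 10.55 in the controls, with mutant 1 highest. Ina read from 8.94 in control 2 to 11.76 in mutant 5, and that mutant stood 1.72 above the mean of the other mutants, against 0.24 for Nefl and 0.02 for Nefm. The differences were 0.26 ± 0.17, 0.20 ± 0.18 and 0.52 ± 0.34 for Nefl, Nefm and Ina (SE, limma adjusted p = 0.702, 0.783 and 0.707). The second probe set of Ina ran in parallel, with a difference of 0.41 ± 0.38 (SE) and a correlation of 0.986 with the first over the 10 arrays.

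Kif5a and Kif5c are neuronal heavy chains of kinesin-1, the motor that carries cargo down axons. Kif5a (10373113) read 8.27, 7.98, 8.08, 7.68 and 8.69 in the mutants and 7.68, 7.42, 7.87, 7.94 and 7.87 in the controls. Kif5c (10471994) read 8.76, 8.59, 8.65, 8.18 and 9.77 in the mutants and 7.90, 7.95, 8.39, 8.57 and 8.52 in the controls. In both genes 4 of 5 mutants lay above all controls and mutant 4 lay among them. The differences were 0.38 ± 0.16 and 0.52 ± 0.24 (SE, limma adjusted p = 0.589 and 0.612), and without mutant 5 and control 2 they were 0.16 and 0.20.

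Gpm6a had the widest spread of all members. Gpm6a and Gpm6b are four-pass membrane glycoproteins of neurites, and Gap43 is a growth cone phosphoprotein. Gpm6a (10571815) read 6.07, 6.87, 7.68, 7.81 and 10.58 in the mutants and 6.25, 6.03, 6.52, 8.61 and 7.35 in the controls. The highest value was that of mutant 5, the second that of control 4, and mutant 1 was the second lowest of the 10, so the groups overlapped apart from mutant 5. Its difference of 0.85 ± 0.71 (SE, limma adjusted p = 0.764) went to 0.15 without mutant 5. Gap43 (10439514) read 11.21, 11.13, 11.40, 10.86 and 11.85 in the mutants and 11.20, 10.52, 11.27, 11.16 and 11.04 in the controls, a difference of 0.25 ± 0.17 (SE). Gpm6b differed by 0.32 ± 0.27 (SE), and by 0.04 without mutant 5.

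Snap25, Syt1, Syt4 and Rab3a act in vesicle docking and release. Snap25 (10476512), a SNARE protein of the plasma membrane, read 7.95, 7.32, 7.63, 7.13 and 7.99 in the mutants and 7.17, 6.98, 7.71, 7.20 and 7.35 in the controls. Mutants 1 and 5 lay above all controls, and the others overlapped them. Rab3a (10572485), a vesicle GTPase, read 6.89, 6.84, 6.86, 6.95 and 7.68 in the mutants and 6.84, 6.56, 7.02, 7.07 and 6.85 in the controls. For Rab3a mutants 1 to 4 lay close together and below the 2 highest controls. The differences were 0.32 ± 0.17 for Snap25, 0.56 ± 0.31 for Syt1, 0.40 ± 0.33 for Syt4 and 0.18 ± 0.16 for Rab3a (SE). Syt1 and Syt4 rested on mutant 5, which stood 1.78 and 1.94 above the other mutants, and without it they differed by 0.20 and 0.01.

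The granins Scg2, Scg3 and Chgb load and sort the cargo of dense-core vesicles. Scg3 (10595033) read 8.15, 7.95, 8.26, 7.80 and 9.26 in the mutants and 7.39, 6.86, 7.91, 7.89 and 7.80 in the controls. For Scg3 4 of 5 mutants lay above all controls, and mutant 4 lay below 3 of the controls. Its difference was 0.71 ± 0.26 (SE, limma adjusted p = 0.575), 0.47 without mutant 5 and 0.29 without control 2 as well, the largest of the members in each of these last cases. Chgb (10476355) read 6.05, 6.15, 5.90, 5.98 and 7.40 in the mutants and 5.75, 5.85, 5.99, 6.14 and 6.02 in the controls. Mutant 5 aside, all arrays of Chgb lay between 5.75 and 6.15, and its difference of 0.35 ± 0.23 (SE) went to 0.07 without that array. Scg2 differed by 0.38 ± 0.18 (SE), with 4 of 5 mutants above all controls and mutant 1 the lowest of the 10 arrays.

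Ncam1 was the 1 member whose groups did not overlap, a pattern in this direction that 1.27% of all genes showed. Ncam1, L1cam and Cntn2 are immunoglobulin-type adhesion molecules of axons, and Ncam1 is also made by other embryonic cells. Ncam1 (10593293) read 10.33, 10.33, 10.34, 10.37 and 10.81 in the mutants and 10.07, 10.10, 10.02, 10.21 and 10.21 in the controls. Mutants 1 to 4 lay close together and above controls 4 and 5, the highest controls, and mutant 5 stood 0.46 above them. The difference was 0.32 ± 0.09 (SE), with an unadjusted limma p of 0.00355, an adjusted p of 0.569 and an exact two-sided permutation p of 0.00794, the smallest that 5 against 5 arrays can give. Groups that do not overlap always give this permutation p. For the other members the permutation p ran from 0.0397 (Scg3) to 0.524 (Stmn3). The difference of Ncam1 was 0.22 without mutant 5 (limma adjusted p = 0.580), 0.27 within numbers 1 to 3 and 0.38 within numbers 4 and 5. Cntn2 (10357705) read 9.34, 9.32, 9.24, 9.13 and 9.92 in the mutants and 8.67, 8.16, 9.34, 9.32 and 9.44 in the controls. Controls 1 and 2 were low for Cntn2 and the other controls lay among the mutants, and its difference was 0.40 ± 0.23 (SE). L1cam differed by 0.39 ± 0.20 (SE), with 3 of 5 mutants above all controls.

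**Figure D3:**
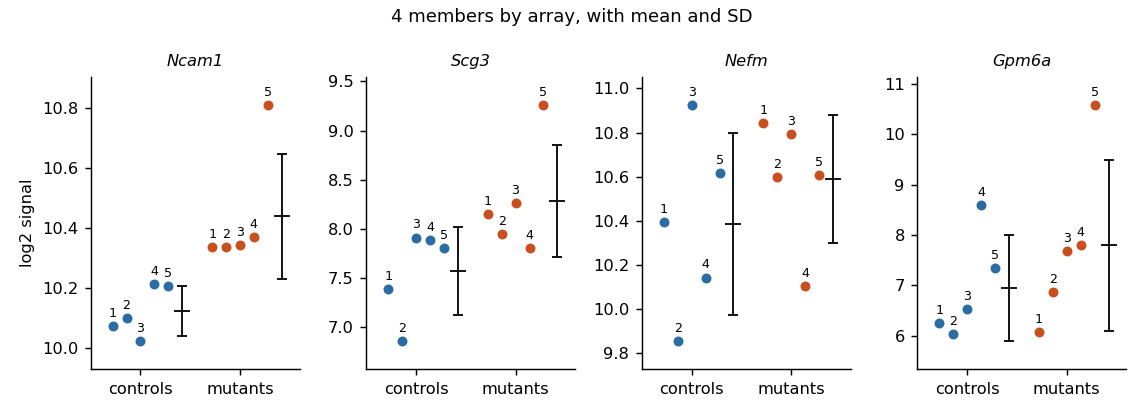
Log2 signal of Ncam1, Scg3, Nefm and Gpm6a in each array, with numbers giving the replicate and bars giving the mean and SD (n = 5). The groups are apart for Ncam1, overlap through mutant 4 for Scg3, and overlap more widely for Nefm and Gpm6a. Mutant 5 is mid-range for Nefm and at 10.58 for Gpm6a.

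The remaining members were Rtn1 (reticulon 1, of the endoplasmic reticulum), Uchl1 (a ubiquitin hydrolase abundant in neurons), Gng3 (a G protein gamma subunit) and Tagln3 (an actin-binding protein). Uchl1 (10522208) read 10.19, 10.06, 10.02, 9.94 and 10.62 in the mutants and 9.77, 9.65, 10.13, 10.18 and 9.95 in the controls. Rtn1 (10400926) read 10.06, 9.96, 10.19, 10.02 and 11.57 in the mutants and 9.80, 9.12, 10.22, 10.43 and 10.01 in the controls. In both genes control 2 was lowest, mutant 5 highest, and the other arrays were mixed. The differences were 0.44 ± 0.30 for Rtn1, 0.23 ± 0.13 for Uchl1, 0.37 ± 0.25 for Gng3 and 0.37 ± 0.22 for Tagln3 (SE).

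Spread differed between the groups through mutant 5. The mutant SD exceeded the control SD in 30 of 34 members, with medians of 0.56 and 0.32. Among mutants 1 to 4 the median SD was 0.22, and their SD exceeded the control SD in 5 of 34 members. Control 2, the lowest array for 28 members, stayed in the control SD, so the 2 spreads are not treated alike. Mutant 5 stood above the mean of the other mutants by 0.02 (Nefm) to 3.47 (Gpm6a), with a median of 1.12. Control 2 stood at -0.03 (Ncam1) to -1.15 (Ina) from the mean of the other controls, with a median of -0.64.

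After the group means were removed, the members varied together from embryo to embryo. The 561 pairs of members had a median Pearson r of 0.84 (Spearman 0.76) over the 10 arrays, and 558 were above 0. The arrays are few and mutant 5 weighs heavily, and without it the median was 0.68, and without control 2 as well 0.45. Each member's r with the mean of the other 33 ranged from 0.36 for Nefm to 0.99 for Ina, with 20 members above 0.9. Of the genes outside the members, 1.47% had an r above 0.9 with the module mean. Without mutant 5, 9 members and 0.311% of other genes were above it, and Scg2 (0.21) and Ncam1 (0.30) followed the others least.

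The genes outside the members that followed the module mean most closely were Gnao1 (r = 0.995), Rab6b (0.992), Hecw1 (0.992), Ttyh1 (0.989) and Srrm4 (0.989) over the 10 arrays. Rufy3 (0.987), Amph (0.986), Kcnh8 (0.986), Cacna2d2 (0.985) and Gdpd1 (0.984) came next. Gnao1 encodes a G protein alpha subunit abundant in neurons, Rab6b a neuronal Golgi GTPase, Srrm4 a splicing factor of neural microexons, and Amph the vesicle-recycling protein amphiphysin. Spearman's rho of these 10 was 0.903 to 1, and r was 0.951 to 0.987 without mutant 5 and 0.875 to 0.962 without control 2 as well. They were highest in mutant 5 and read 0.21 to 0.59 higher in the mutants, and 0 passed the limma test. The genes that ran most opposite were Oser1 (r = -0.970), Ets1 (-0.966), Eif4b (-0.957), Creb3l2 (-0.956) and Ephx2 (-0.954), and without mutant 5 their r was -0.940 to -0.842. Ets1 is a transcription factor of endothelium and mesenchyme.

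Other lists of neuronal and tissue markers were set beside the members, and 0 genes of these lists passed over all genes in either direction. Of 45 measured further pan-neuronal genes, 40 were higher, with a median difference of 0.31, and 34 were higher with a median of 0.11 without mutant 5. Cntn1, an adhesion molecule, differed by 0.39 ± 0.12 and Myt1, a zinc finger factor of neuronal differentiation, by 0.65 ± 0.21 (SE). Of 15 cochleovestibular ganglion genes, 13 were higher with a median of 0.23, and 14 with a median of 0.13 without mutant 5. Neurod4, a proneural factor, differed by 0.74 ± 0.25 and Pou4f1, a sensory neuron factor, by 0.44 ± 0.18 (SE).

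On average, hindbrain and neural tube genes were high in the same embryo. Of 18 measured progenitor genes 17 read above background in every array, and 10 were higher, with a median of 0.06. The list mean was 0.93 in mutant 5, -0.16 to -0.02 in the other mutants and -0.20 to 0.35 in the controls, where control 4 was highest. Without mutant 5 the median was -0.11 and 4 of 18 were higher. Pax6, a patterning factor of the neural tube, read 7.27 in mutant 5 and 5.05 to 6.55 in all other arrays, and Fabp7, a radial glial protein, 11.40 against 9.03 to 10.90. The 18 central neuron subtype genes had a list mean of 0.81 in mutant 5, -0.16 to 0.09 in the other mutants and -0.13 to 0.25 in the controls. Slc17a6, a vesicular glutamate transporter, differed by 0.55 ± 0.26 and Phox2a, a factor of hindbrain visceral neurons, by -0.17 ± 0.11 (SE). The ganglion list mean was 0.51 in mutant 5, 0.02 to 0.34 in the other mutants and -0.35 to 0.30 in the controls. In mutant 5 the ganglion genes thus stood on average 0.31 above the other mutants, the hindbrain genes 1.00 and the members 1.14. Single genes ranged from -0.37 to 1.04 in the ganglion list, 0.13 to 4.34 in the hindbrain list and 0.02 to 3.47 among the members. The hindbrain gene that stood highest, En2, read 8.81 in mutant 5 and 4.17 to 7.05 in all other arrays, and it raises that list's average. Mutant 5 was not the highest array for Sox1, Sox3, Olig2 and Dbx2, and it was the highest for the rest of the hindbrain list. The part of central nervous tissue in the members' shift was not tested.

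The members differed in how far they followed the hindbrain list in the 9 arrays other than mutant 5. Map2 (r = 0.77), Gpm6a (0.76) and Gpm6b (0.74) followed it most. Nefm (-0.16), Nefl (-0.01), Tagln3 (0.00862), Scg2 (0.03), Snap25 (0.07) and Stmn4 (0.09) followed it least, and of these Tagln3, Scg2 and Stmn4 still stood 0.86, 0.77 and 0.93 above the other mutants in mutant 5. Nefm (0.96), Nefl (0.94) and Elavl4 (0.93) followed the ganglion list most closely in those arrays, and Ncam1 (-0.35) and Gpm6a (-0.18) the least. In these 9 arrays 20 members were closer to the ganglion list and 14 to the hindbrain list, with median r of 0.68 and 0.50, while over all 10 arrays 12 were closer to the ganglion and 22 to the hindbrain list. The 9 arrays include control 2, the lowest array in both the module mean (-0.50) and the ganglion list mean (-0.35). They also include control 4, where the hindbrain list mean was 0.35, against -0.20 to 0.002 in the rest of them. Control 4 was the highest of the 9 arrays for Map2, Gpm6a and Gpm6b, so each r with the hindbrain list leans on that array. Across the 34 genes, the excess in mutant 5 had r = 0.63 (Spearman 0.63) with a member's r with the hindbrain list in the 9 arrays, and 0.66 without Gpm6a. With a member's r with the ganglion list it had r = -0.48 (Spearman -0.48), and -0.33 without Gpm6a. Genes are not independent replicates, and all points share the same arrays. Mutants 1 to 4 enter both the excess and each r, so these correlations are descriptions only and the source of the excess was not tested. Ncam1 had an r of 0.55 with the hindbrain list and an excess of 0.46, and Uchl1 an r of 0.67 and an excess of 0.57.

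**Figure D4:**
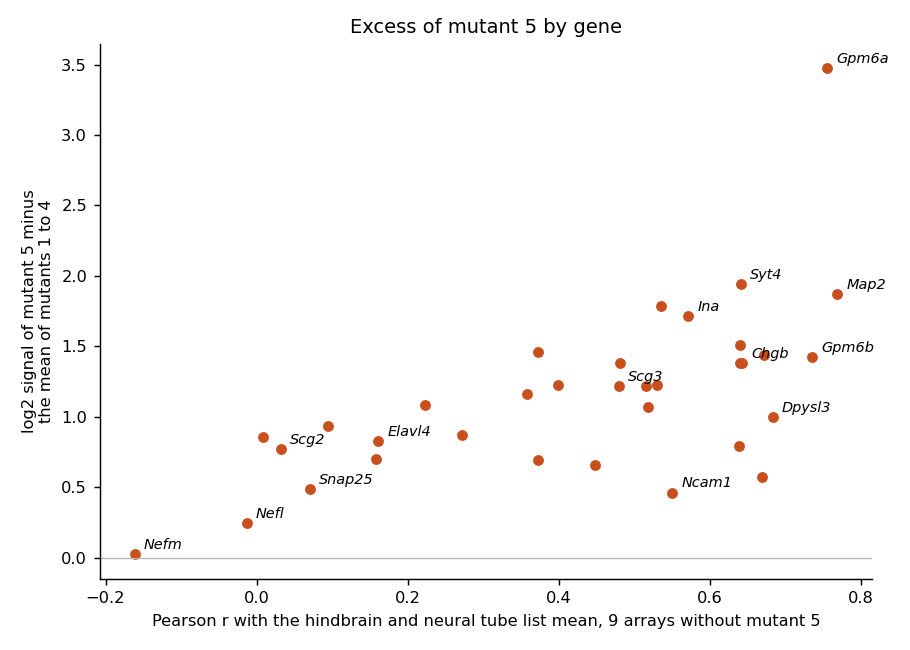
Each point is 1 of the 34 members, with the Pearson r of its log2 signal with the hindbrain and neural tube list mean over the 9 arrays other than mutant 5 (group means removed) on the x axis and the log2 signal of mutant 5 minus the mean of mutants 1 to 4 on the y axis. Nefm and Nefl lie at the lower left, at 0.02 and 0.24, and Gpm6a at the upper right, at 3.47. Among those 9 arrays the hindbrain list mean was highest in control 4, at 0.35.

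Over all 10 arrays the module mean had r = 0.99 with the further pan-neuronal list, 0.73 with the ganglion list and 0.88 with each of the hindbrain and central subtype lists. Without mutant 5 these were 0.96, 0.69, 0.54 and 0.54. Without control 2 as well they were 0.90, 0.22, 0.63 and 0.44. The order of the ganglion and hindbrain lists thus depended on which arrays were left out. The lists of other tissues had r between -0.86 and 0.49 over all arrays, and between -0.69 and 0.90 without mutant 5, where the Schwann cell list (0.90) followed the module mean more closely than the ganglion list. The periotic mesenchyme and cartilage list mean was -0.61 in mutant 5, -0.35 to -0.02 in the other mutants and -0.23 to 0.16 in the controls. It had an r of -0.83 with the module mean over the 10 arrays and of -0.69 without mutant 5, with 13 of 14 genes lower in the mutants. Col2a1 and Col9a3, cartilage collagens, differed by -0.53 ± 0.12 and -0.48 ± 0.15 (SE). Skeletal myoblast genes had 10 of 11 members lower, among them Myod1 (-0.34 ± 0.14) and Tnnt1 (-0.39 ± 0.16), and macrophage genes 9 of 12 lower, among them Pf4 (-0.41 ± 0.15) and C1qa (-0.12 ± 0.10). The macrophage list mean was -0.44 in mutant 5 and -0.23 to 0.20 in all other arrays. Of 14 otic epithelium genes 9 were lower, with a median of -0.03, among them Dlx5 (-0.44 ± 0.19) and Dlx6 (-0.45 ± 0.20). Schwann cell precursor genes had a median of -0.07, with Ednrb at 0.38 ± 0.11 and Fabp7 at 0.65 ± 0.27, and their mean in mutant 5 was -0.04. Over all 10 arrays the r of the Schwann list with the module mean was -0.01. Fabp7 is in both the Schwann and the hindbrain list. It read 9.03 to 10.90 outside mutant 5, the widest range in the Schwann list, so it weighs heavily in that list's mean. Pax8 is in both the central subtype and the otic list, and Gata3 in both the ganglion and the otic list. The medians were 0.05 for endothelium, with Ramp2 at -0.22 ± 0.09 and Kdr at 0.19 ± 0.08, and -0.15 for 7 red blood cell genes. Of these, Alas2 differed by -0.30 ± 0.27 and Hbq1a, not above 4.36 in all arrays, by -0.15 ± 0.07. Immediate early genes had a median of -0.07, with Junb at -0.20 ± 0.18 and Ier2 at -0.19 ± 0.29 (SE throughout). How far tissue makeup bears on the members' shift was not tested.

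**Figure D5:**
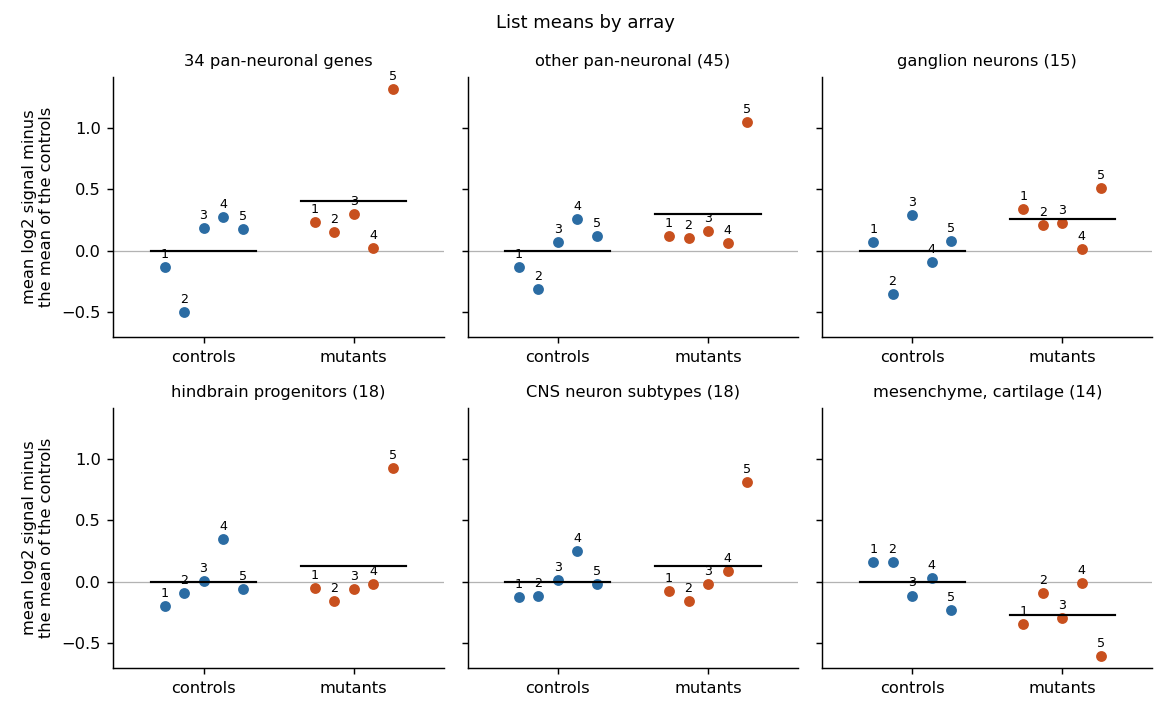
Mean over a list of the log2 signal minus each gene's control mean, in each array, with numbers giving the replicate and lines the group mean (n = 5), for the 34 members and 5 marker lists. Mutant 5 stands apart in the neuronal and neural tube lists, at 1.32 for the members and 0.93 for the hindbrain list, less so in the ganglion list (0.51), and lowest in the mesenchyme and cartilage list (-0.61).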

How the data were processed

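The authors' deposited values are log2 signals per probe set that, per the submitters' processing notes, came from RMA run in Affymetrix Expression Console 1.1, on 300 ng of total RNA per array, per the labels' protocols. The log2 scale was read from the values, whose array medians were 6.19 to 6.27. RMA sets all arrays to 1 distribution, so an overall change in RNA is not seen. Precision is limited by the number of arrays. The table held 35557 probe sets, of which the platform annotation gave 21789 a single gene symbol, 1621 several and 12147 none.

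The groups were tested in limma 3.58.1 under R 4.3.3 (lmFit, eBayes with trend, two-sided) on all 21789 probe sets, with Benjamini-Hochberg adjustment and a threshold of 0.05. The probe set of highest mean stood for each of 19938 genes. Intervals are at the 95% level. Counts, medians, list means and correlations are descriptions without a test, made with Python 3.11.15. The members, their grouping and the marker lists were chosen with earlier results of these data known. Array values are given for the member of smallest and of largest p in each of 10 groups of related proteins, and 2 genes of smallest p for each of the 13 other lists. The 10 genes most like and 5 most unlike the module mean were named by Pearson r after group means were removed. Any other member named was chosen after its values were seen. Tested on simulated data for this comparison with 21789 probe sets, the fit recovered 79 of 100 changes of 0.5 and 96 of 100 changes of 1, with 16 false calls beside them, and made 0 calls in a run where nothing was changed. The simulated noise was normal and independent between probe sets, and the changed probe sets were drawn at random. These rates therefore do not give the power for the members, which varied together and had SEs of up to 0.71 (Gpm6a). Promoter windows came from RefSeq (GRCm38.p6).

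Same-number mutants and controls deviated together at correlations of 0.122 to 0.247, inside the range of other numbers (-0.392 to 0.382). Of the mutants, 2 correlated best with the control of their own number. These values do not settle whether the numbers are pairs, which the labels do not explain. The main fit was unpaired, and the replicate number entered as a block only in an alternative fit. The alternatives were eBayes without trend or robust, the replicate number, the set of arrays or the sex in the fit, array weights, a further quantile normalization, median centring, a filter on low values, the mean of all probe sets of a gene, each set of arrays alone, and leaving out each array. Leaving out mutant 5 and control 2 together was added after the data were seen.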

Additional observations from a re-analysis of the deposited data

Results flagged for a closer look

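Of 96 groups of 5 values (the members, the module mean and the marker lists in each genotype), 19 held an array far from the other 4 by Dixon's ratio, where chance marks about 4.8, and 17 of the 19 lay in mutant 5. These groups are not independent, since the members vary together.

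Mutant 5 stood far above the other mutants in 12 members. Its log2 signals were 10.9867 for Dcx, 11.205 for Crmp1, 11.7085 for Dpysl3, 11.755 for Ina, 9.4889 for Syt1 and 8.9575 for Syt4. They were 7.6834 for Rab3a, 7.4043 for Chgb, 9.9182 for Cntn2, 10.8079 for Ncam1, 11.5672 for Rtn1 and 10.3932 for Tagln3. The module mean (1.3207) and the means of the other pan-neuronal (1.0541), hindbrain and neural tube progenitor (0.9292) and central neuron subtype (0.8126) lists were marked high in it, and the macrophage list mean (-0.4423) low.

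Among the controls, control 2 stood far below the others for Elavl2 (7.3615), and control 1 stood high for the mean of the endothelium list (0.1698).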

How the results depend on the processing

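The count of members past the threshold was 0 under all 23 alternatives, and 34 of 34 members were higher under all of them except without mutant 5 (33), within numbers 4 and 5 (33) and without mutant 5 and control 2 together (20). Over all genes 2 passed, 1 after the filter on low values, 1 within numbers 1 to 3 and 0 within numbers 4 and 5, while leaving out single arrays kept the count at 2. With the replicate block 2 genes and 0 members passed, and it changed no other call. The difference of the module mean was 0.18 to 0.50 when single arrays were left out, 0.26 with array weights and 0.05 without mutant 5 and control 2 together. The median pairwise correlation of the members was 0.68 to 0.87 when single arrays were left out and 0.45 without both. Of 782 member differences under the alternatives 16 turned sign. Nefm was at -0.0232 within numbers 4 and 5, and Stmn3 ran from -0.00769 (without mutant 5) to 0.39 (without mutant 4) when single arrays were left out. Without mutant 5 and control 2 the differences were -0.0081 for Stmn2, -0.17 for Stmn3, -0.0364 for Stmn4, -0.0707 for Tubb3, -0.00217 for Crmp1, -0.00115 for Dpysl3, -0.0509 for Ina, -0.0211 for Gap43, -0.0791 for Gpm6a, -0.0622 for Gpm6b, -0.0859 for Syt4, -0.0572 for Rab3a, -0.0604 for Rtn1 and -0.0105 for Gng3. That choice removes the extreme embryo of each group and so narrows the difference by construction. All members read above 4.36 in every array, but so did 83.2% of all genes, so this level does not show that no member is limited by background. Chgb read 5.75 to 6.15 in the arrays other than mutant 5, under the array medians of 6.19 to 6.27.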
